A study of Mus musculus with 6 samples.

Results

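The genes described here are 41 genes of the NRF2 antioxidant response and of glutathione and thioredoxin chemistry in mouse esophageal organoids. They were chosen by gene symbol, with earlier results of these data known. Each of the 41 was found among the 52636 genes of the deposited table. They comprise the transcription factor gene Nfe2l2 and its repressor Keap1, 4 genes of cystine import and glutathione synthesis, 5 of glutathione reduction and peroxide removal, 5 of the thioredoxin system, 3 of superoxide and hydrogen peroxide removal, 3 of heme breakdown and iron storage, 13 glutathione S-transferases, 3 quinone and carbonyl reductases and NADPH makers, Osgin1, and 2 exporters. Of these, 40 reached 1 CPM, the authors' depth-scaled read unit, in at least 2 of the 6 libraries and were tested.

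Organoids, which are small epithelial cultures grown here in Matrigel, came from K5:Smo mice of the genotype Krt5CreER:RosaSmoM2. In these mice tamoxifen activates the CreER recombinase in cells that use the Krt5 promoter, mainly basal keratinocytes, and so switches on SmoM2, a constantly active Smoothened. All groups carried these alleles and received tamoxifen, with esophagi collected 5 days later, so Hedgehog activation is common to every library. After 13 days of culture in KSFM medium the treatments ran for 72 h with renewal each 24 h. The inhibitor group received A8301, a blocker of the TGFb type I receptors, at 500 nM. The ligand group received 1 ng/ml TGFb1 together with 20 ng/ml BMP4. The ibuprofen group received the ligands plus 500 uM ibuprofen, a cyclooxygenase inhibitor. Each group had 2 libraries, called inhibitor 1 and 2, ligand 1 and 2, and ibuprofen 1 and 2 below. The labels do not say whether these came from separate mice or cultures, so the p-values measure the spread between these libraries, which may be technical. Since each group had either A8301 or the ligands, adding ligands and lacking A8301 cannot be told apart, nor can TGFb1 from BMP4; the labels do not say whether A8301 was also present beside the ligands.

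NRF2, encoded by Nfe2l2, is a transcription factor that the adaptor KEAP1 marks for degradation under resting conditions. Oxidants and electrophiles modify cysteines of KEAP1, after which NRF2 accumulates, pairs with a small MAF protein and binds antioxidant response elements (ARE) near genes for glutathione synthesis, conjugation, export and NADPH supply. Much of this control acts on the protein, which was not measured here. Glutathione is made from glutamate, cysteine and glycine, and cystine imported by the SLC7A11 transporter is a main source of the cysteine. In mouse esophageal epithelium, loss of Keap1 is known to give a thickened, heavily keratinized lining through NRF2.

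Depth was 6413873 to 7730582 reads per library, as estimated from the deposited values, so 3 reads correspond to 0.388 to 0.468 CPM. PCR copies are not independent molecules, and this floor covers counting error only. All 12 keratinocyte markers of the labelled esophageal epithelium were detected, with a summed level of 13929 to 20498 CPM. Single markers moved in different directions. The basal keratin Krt14 was at 2553 to 2691 CPM in the inhibitor libraries, 7501 to 9097 in the ligand libraries and 7735 to 8056 in the ibuprofen libraries, and the integrin Itga6 at 727 to 753, 1664 to 1840 and 1766 to 1944. Krt5 was at 1743 to 1755, 3073 to 3229 and 2225 to 2395 CPM. In contrast, Krt15 was at 80.7 to 220, 22.6 to 29.5 and 4.05 to 5.80 CPM. Trp63 was at 620 to 678, 399 to 459 and 338 to 377 CPM. Sox2 was at 120 to 130, 66.2 to 75.0 and 53.8 to 64.3 CPM. The suprabasal keratin Krt13 was at 8073 to 9331, 2759 to 3587 and 634 to 1116 CPM, and Krt4 at 2158 to 3298, 311 to 1145 and 1.25 to 2.90. Lor was at 1066 to 1115, 107 to 221 and 1.2 to 6.5 CPM. Ivl, however, was at 0.999 to 1.05, 18.7 to 18.8 and 11.4 to 20.5 CPM. Epcam was at 46.5 to 57.0, 94.5 to 132 and 296 to 530 CPM, and Cdh1 stayed between 541 and 713. The 8 fibroblast markers, all detected, summed to 170 and 233 CPM in the inhibitor libraries, to 1906 and 2923 in the ligand libraries and to 1514 and 1906 in the ibuprofen libraries. The general immune marker Ptprc was at or below 0.5 CPM in every library, and the 8 immune markers, 4 of them detected, summed to 27.7 to 67.7 CPM. The 6 muscle markers, 4 of them detected, summed to 511 and 583 CPM with the inhibitor, 1048 and 1374 with ligands and 885 and 1151 with ibuprofen. Endothelial markers (5 of 6 detected) summed to 7.5 to 29.4 CPM and glial markers (2 of 5) to 50.7 to 78.4 CPM. The part of these cell types in the results below was not tested. In bulk RNA, fewer cells of a type and less RNA per cell cannot be told apart.

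Promoter windows were searched for motifs known to be bound by NRF2, AP-1 and ATF4; no binding was measured. RefSeq windows (GRCm38.p6, 250 bases before to 50 after each start) were given for 35 of the 41 genes, with no window for Abcc1, Gclc, Gsr, Gsta4, Hmox1 and Prdx6. The stretches below show examples of these motifs in genes described further on, taken from windows whose start lies within 100 bases of the annotated gene start, which leaves out Osgin1. Capitals mark the matched motif, and each stretch reads 5′ to 3′ on the gene's strand.
Srxn1, chr2:152105467-152105499 (+): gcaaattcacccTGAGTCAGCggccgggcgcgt
Prdx1, chr4:116685454-116685486 (+): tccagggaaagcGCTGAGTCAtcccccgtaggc
Gstp1, chr19:4037966-4037998 (-): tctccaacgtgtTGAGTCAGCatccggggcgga
Gclm, chr3:122245411-122245443 (+): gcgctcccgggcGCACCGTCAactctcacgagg
Abcc4, chr14:118706224-118706256 (-): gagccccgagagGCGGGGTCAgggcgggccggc
Nfe2l2, chr2:75704883-75704913 (-): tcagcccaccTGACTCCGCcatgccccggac
Slc7a11, chr3:50443641-50443691 (-): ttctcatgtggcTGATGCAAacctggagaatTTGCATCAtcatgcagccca

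Matches were searched on both strands. The ARE core TGACNNNGC was present in 11 of the 35 genes with a window (31.4%), against 13.99% of 27025 genes. These were Abcc4, Gclm, Gsta3, Gstm5, Me1, Mgst1, Nfe2l2, Prdx1, Sod1, Srxn1 and Txnrd1. The narrower NRF2 and small MAF element TGANTCAGC, a search added after the first matches had been seen, was present in 5 of 35 (14.3%), namely Gstp1, Me1, Osgin1, Prdx1 and Srxn1, against 1.37% of all genes. The AP-1 site TGANTCA lies inside that element, and 7 of 35 genes held it (20.0%, against 8.97%). The ATF4 composite core TGATGNAA was found in Slc7a11 alone among the 35 (2.9%, against 4.51%), where it occurs on both strands as an inverted repeat. A match is a description of letters and not evidence of binding. The genes were chosen for their place in the NRF2 response and glutathione chemistry, so these shares beside those of all genes do not test an excess.

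All 3 comparisons were taken from 1 limma model over 18241 genes, with p-values adjusted by Benjamini-Hochberg over all of them and a threshold of 0.05. Ligands against the inhibitor moved these genes mostly down. Of the 40 tested, 8 were higher and 18 lower, and 14 did not pass. Over all tested genes 20.3% were higher, 19.8% lower and 40.1% called in either direction, against 65.0% of the 40. The median log2 fold change was -0.41 for the 40 and -0.00 for all genes, and 11 of the 40 changed at least 2-fold. Libraries of the 2 groups did not overlap for 36 of the 40, against 72.2% of all genes. The count of 18 lower fell to 10 without inhibitor 1 and to 11 without inhibitor 2.

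Adding ibuprofen to the ligands moved them mostly up. There were 15 higher and 3 lower among the 40, with 22 not passing. Over all genes 10.4% were higher, 8.98% lower and 19.4% called, against 45% of the 40. The median log2 fold change of the 40 was 0.15 and that of all genes -0.01, and 4 of the 40 changed at least 2-fold. Libraries did not overlap for 28 of the 40, against 58.8% of all genes. Higher calls numbered 10 without ibuprofen 1, and the 3 lower calls were 1 without ligand 2. With no scaling factors the split over all genes in this step was 1549 higher and 2037 lower, against 1898 and 1638 in the scaled data, and the split of the 40 was 14 and 3.

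Ibuprofen with ligands against the inhibitor gave 13 higher, 16 lower and 11 not passing. Over all genes 20.6% were higher, 19.8% lower and 40.4% called, against 72.5% of the 40. Here 15 of the 40 changed at least 2-fold, and libraries did not overlap for 34, against 72.4% of all genes. Lower calls numbered 10 without inhibitor 1. All 3 comparisons share libraries, so their values are given side by side and not as independent results. Because the genes were chosen with earlier results of these data known, their shares beside those of all genes do not test an excess.

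**Figure D1:**
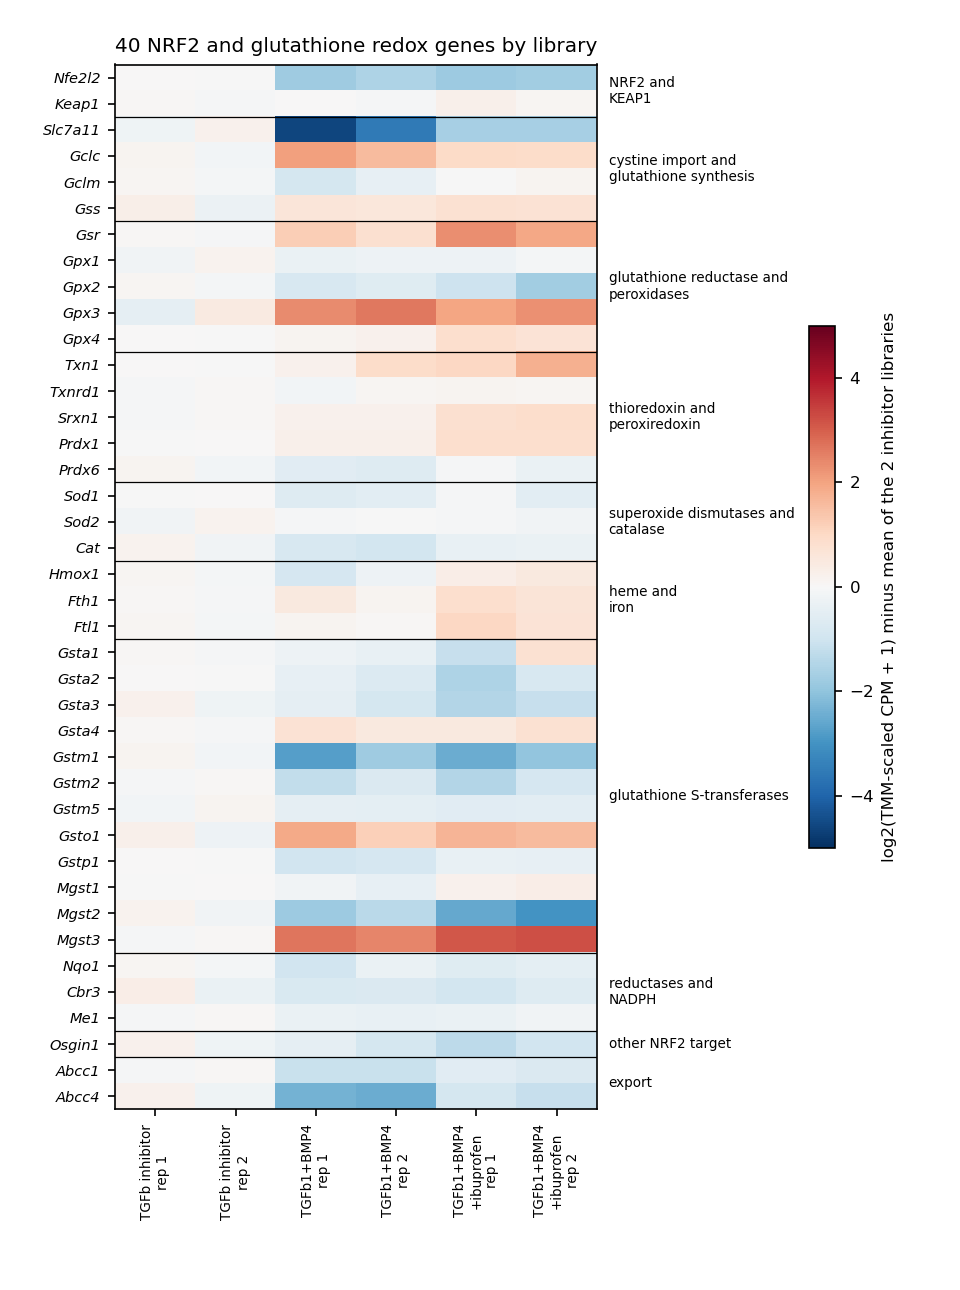
Level of each of the 40 tested genes in each of the 6 libraries (columns), as log2(TMM-scaled CPM + 1) minus the mean of the 2 inhibitor libraries; red is higher and blue lower, and rows are grouped by role. Slc7a11 is the deepest blue in the ligand libraries, and Mgst3 and Gpx3 are red in all 4 libraries that received ligands.

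Nfe2l2 itself fell with the ligands and stayed low with ibuprofen, while Keap1 did not pass in any comparison. Nfe2l2 (ENSMUSG00000015839, GRCm38 chr2:75675513-75704641, minus strand, protein-coding) was at 712 and 669 CPM in the inhibitor libraries, 194 and 243 in the ligand libraries and 182 and 197 in the ibuprofen libraries. Both inhibitor libraries lay far above the other 4. Its log2 fold change was -1.66 with ligands (SE 0.11, limma adjusted p = 1.05e-05), a 3.15-fold lower level. Against the inhibitor, ibuprofen with ligands gave -1.78 (SE 0.11, adjusted p = 7.46e-06). Between the ligand and ibuprofen groups the libraries overlapped and the difference was -0.13, with a 95% interval of -0.37 to 0.12 (adjusted p = 0.461). Keap1 had group means of 26.5 CPM ± 1.59, 26.1 ± 0.424 and 28.4 ± 2.16 (SD, n = 2), in the order inhibitor, ligands, ibuprofen. Its log2 fold change with ligands was -0.01 with a 95% interval of -0.30 to 0.27. The ratio of Nfe2l2 to Keap1 CPM, which needs no scaling factor, was 25.8 and 26.4 with the inhibitor, 7.35 and 9.41 with ligands and 6.09 and 7.33 with ibuprofen.

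Genes of glutathione synthesis went in opposite directions. Slc7a11, the light chain of the cystine and glutamate exchanger, had the largest fall of the 40 with ligands and the largest rise with ibuprofen. Its level (ENSMUSG00000027737, chr3:49892526-50443614, minus strand) was 1542 and 2101 CPM in the inhibitor libraries, 71.5 and 157 in the ligand libraries and 532 and 534 in the ibuprofen libraries. The 3 groups did not overlap, and the ibuprofen libraries lay between the other groups. The log2 fold change was -4.06 with ligands (SE 0.29, adjusted p = 1.81e-05), 16.7-fold lower, and 2.39 on adding ibuprofen (SE 0.29, adjusted p = 0.000909), 5.24-fold higher. Ibuprofen with ligands remained 3.19-fold below the inhibitor (log2 fold change -1.68, adjusted p = 0.002). Leaving out any library kept these 3 calls, although the ligand change ranged from -4.59 to -3.54.

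Glutamate-cysteine ligase makes the first bond of glutathione and has a catalytic subunit, Gclc, and a modifier subunit, Gclm. The subunits moved against each other in both steps. Gclc (chr9:77754535-77794485, plus strand) was at 89.6 and 73.1 CPM with the inhibitor, 332 and 252 with ligands and 151 and 146 with ibuprofen. No groups overlapped. Its log2 fold change was 1.83 with ligands (SE 0.15, adjusted p = 4.31e-05) and -0.89 on adding ibuprofen (SE 0.15, adjusted p = 0.00515). Gclc stayed 1.93-fold above the inhibitor with ibuprofen (adjusted p = 0.00149). Gclm (chr3:122245557-122270732, plus strand) was at 158 and 139 CPM with the inhibitor, 77.7 and 112 with ligands and 139 and 153 with ibuprofen. Its log2 fold change was -0.65 with ligands (SE 0.15, adjusted p = 0.00757) and 0.71 on adding ibuprofen (SE 0.15, adjusted p = 0.0111). Ibuprofen and inhibitor libraries of Gclm overlapped, with a difference of 0.06 (95% interval -0.28 to 0.39) that was -0.02 with no scaling factors. The Gclm calls were lost without inhibitor 1 for ligands (adjusted p = 0.0639) and without ibuprofen 2 for the ibuprofen step (adjusted p = 0.0649). The ratio of Gclc to Gclm within a library was 0.566 and 0.527 with the inhibitor, 4.27 and 2.25 with ligands and 1.08 and 0.956 with ibuprofen. Thus Gclc was below Gclm in read share in both inhibitor libraries and above it in both ligand libraries.

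Glutathione synthetase, Gss, joins glycine in the second step. It was at 25.0 and 16.6 CPM with the inhibitor, 30.5 and 31.1 with ligands and 33.4 and 32.3 with ibuprofen. It rose by 0.58 on the log2 scale with ligands (SE 0.18, adjusted p = 0.0285) and by 0.74 with ibuprofen and ligands against the inhibitor (adjusted p = 0.00998), and did not pass in the ibuprofen step (0.16, adjusted p = 0.592). The ligand call was lost without inhibitor 2, ligand 1 or ligand 2 (adjusted p = 0.174, 0.0931 and 0.0673), and the last call without inhibitor 2 or ibuprofen 1 (0.0602 and 0.0545).

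**Figure D2:**
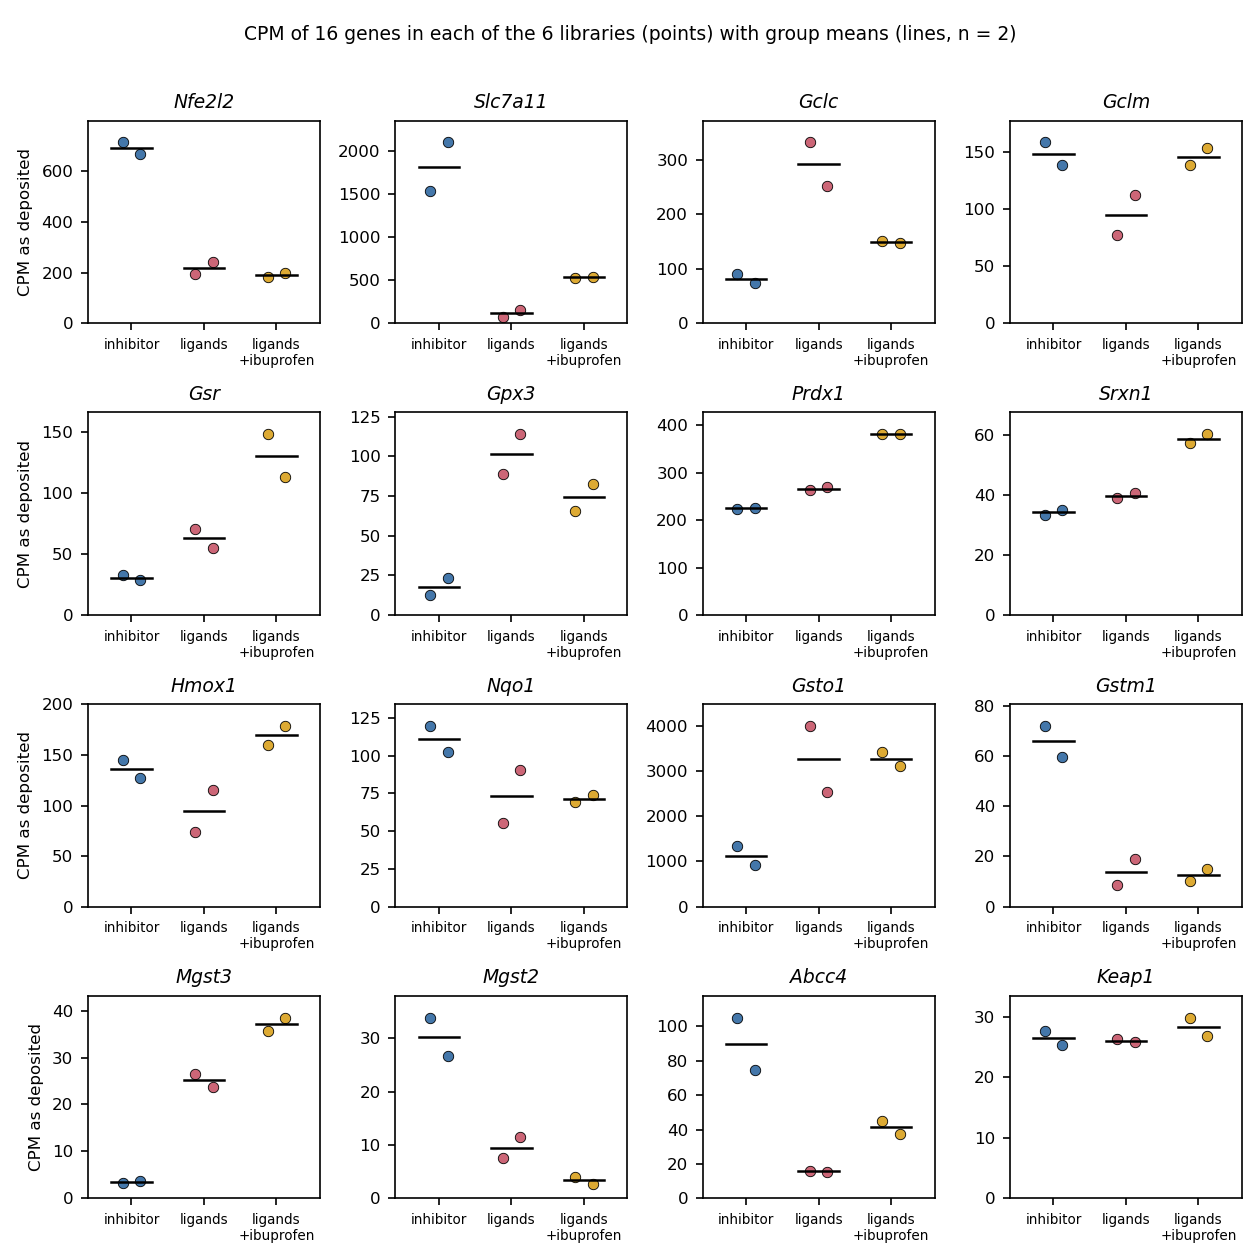
CPM as deposited of 16 genes in each library (points) with the mean of the 2 libraries of each group (lines); every axis starts at 0 and has its own scale. Slc7a11 and Abcc4 are lowest with ligands and intermediate with ibuprofen, Gclc is highest with ligands, and Gsr, Prdx1, Srxn1 and Mgst3 are highest with ibuprofen.

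Glutathione reductase rose in both steps. The enzyme, Gsr, returns oxidized glutathione to its reduced form with NADPH. Its level was 32.4 and 28.8 CPM with the inhibitor, 70.7 and 54.9 with ligands and 148 and 113 with ibuprofen, with no overlap between groups. The log2 fold change was 1.01 with ligands (SE 0.17, adjusted p = 0.00192) and 1.11 on adding ibuprofen (SE 0.17, adjusted p = 0.00294). Across both steps it was 4.35-fold higher than with the inhibitor (adjusted p = 3.43e-05). The calls of Gsr held whichever library was left out.

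The glutathione peroxidases, which reduce hydrogen peroxide and lipid peroxides, differed from each other. Gpx3, the secreted plasma form, was at 12.5 and 23.3 CPM with the inhibitor, 89.0 and 114 with ligands and 65.6 and 82.9 with ibuprofen. It rose 5.646-fold with ligands (log2 fold change 2.497, SE 0.25, adjusted p = 0.000109) and was 4.35-fold above the inhibitor with ibuprofen (adjusted p = 0.00027). The ibuprofen step gave -0.37 (adjusted p = 0.342). Gpx3 is also made by connective tissue cells. The fibroblast marker sum given above, there mostly Col1a1 and Col1a2, was higher in the same 4 libraries. The part of fibroblasts in this rise was not tested. Gpx2, the gastrointestinal epithelial form, was at 101 and 86.4 CPM with the inhibitor, 51.2 and 61.4 with ligands and 42.0 and 25.6 with ibuprofen. It fell in each step, by 0.72 (SE 0.20, adjusted p = 0.0223) and by 0.69 (SE 0.20, adjusted p = 0.0475), and was 2.64-fold below the inhibitor after both (adjusted p = 0.000812). The ratio of Gpx3 to Gpx2 was 0.124 and 0.27 with the inhibitor, 1.74 and 1.86 with ligands and 1.56 and 3.24 with ibuprofen.

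Gpx4, which protects membranes from lipid peroxidation, was at 34.4 and 32.3 CPM with the inhibitor, 35.7 and 39.98 with ligands and 57.6 and 50.96 with ibuprofen. It rose in the ibuprofen step (0.58, SE 0.11, adjusted p = 0.00885) and against the inhibitor (0.76, adjusted p = 0.000918), but not with ligands alone (0.18, adjusted p = 0.235). Gpx1, the abundant cytosolic form, did not pass in any comparison, with group means of 162 CPM ± 25.5, 131 ± 8.09 and 136 ± 9.45. The ligand fall of Gpx2 was lost without inhibitor 1, inhibitor 2 or ligand 1 (adjusted p = 0.128, 0.0546 and 0.0914). Its fall with ibuprofen was lost without inhibitor 1, inhibitor 2, ligand 1, ligand 2 or ibuprofen 2 (0.0673, 0.0658, 0.0713, 0.165 and 0.177). The Gpx4 rise with ibuprofen was lost without ibuprofen 1 (0.0704), and 34.7% of its 50-base windows also occur in other genes. Gpx1 passed for ligands without inhibitor 1 (-0.46, adjusted p = 0.0318).

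The thioredoxin arm rose with ibuprofen in 3 of 5 members, where 10.4% of all genes rose. With ligands it had a single rise and a single fall, where 20.3% of all genes rose and 19.8% fell. Prdx1, a peroxiredoxin that reduces peroxides through thioredoxin, was at 224 and 226 CPM with the inhibitor, 263 and 270 with ligands and 381 and 380 with ibuprofen. It rose by 0.25 with ligands (SE 0.08, adjusted p = 0.0395) and by 0.58 on adding ibuprofen (SE 0.08, adjusted p = 0.0019), reaching 1.78-fold the inhibitor level (adjusted p = 9.92e-05). Srxn1, the sulfiredoxin that repairs over-oxidized peroxiredoxins, was at 33.3 and 35.1 CPM, then 38.8 and 40.4, then 57.2 and 60.2. It rose by 0.62 in the ibuprofen step (SE 0.10, adjusted p = 0.00412) and by 0.84 against the inhibitor (adjusted p = 0.000342), and did not pass with ligands (0.22, adjusted p = 0.132). Libraries within a group were close for both genes and no groups overlapped. The stretches printed above for Srxn1 and Prdx1 both hold a TGANTCAGC match. Windows of Gstp1, Me1 and Osgin1 hold it too, and these genes moved otherwise. Gstp1 changed by -0.90 with ligands and by 0.51 on adding ibuprofen, and Me1 by -0.35 with ligands. Osgin1 passed against the inhibitor alone (-1.13). The ligand rise of Prdx1 was lost without inhibitor 1, inhibitor 2, ligand 1 or ligand 2 (adjusted p = 0.18, 0.128, 0.123 and 0.0766), while its other calls, and those of Srxn1, held whichever library was left out.

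Thioredoxin, Txn1, was at 145 and 142 CPM with the inhibitor, 162 and 274 with ligands and 281 and 475 with ibuprofen. It rose by 0.86 on adding ibuprofen (SE 0.26, adjusted p = 0.0479) and was 2.68-fold above the inhibitor (adjusted p = 0.00255). The 2 libraries differed widely in both ligand-treated groups, and ligand 2 lay close to ibuprofen 1. Prdx6, a peroxiredoxin that uses glutathione, was at 97.8 and 81.2 CPM, then 58.8 and 57.9, then 81.7 and 66.9. It fell by 0.59 with ligands (SE 0.13, adjusted p = 0.00681) and did not pass on adding ibuprofen (0.41, adjusted p = 0.0613). Txnrd1, the cytosolic thioredoxin reductase, did not pass in any comparison, with group means of 53.6 CPM ± 3.71, 53.0 ± 8.16 and 55.5 ± 1.35. The ratio of Gsr to Txnrd1, the reductases of the glutathione and thioredoxin systems, was 0.636 and 0.512 with the inhibitor, 1.49 and 0.933 with ligands and 2.62 and 2.07 with ibuprofen. The Txn1 rise with ibuprofen was lost without inhibitor 1, inhibitor 2, ligand 1 or ibuprofen 2 (0.0772, 0.0756, 0.2 and 0.236), and the fall of Prdx6 without inhibitor 1 (0.0645). Txn1 passed for ligands without ligand 1 (0.0232) and Prdx6 for the ibuprofen step without ibuprofen 2 (0.043).

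Catalase and cytosolic superoxide dismutase fell with ligands, while mitochondrial superoxide dismutase did not pass. Cat, which breaks down hydrogen peroxide, was at 215 and 167 CPM with the inhibitor, 105 and 101 with ligands and 138 and 143 with ibuprofen. It fell by 0.87 with ligands (SE 0.12, adjusted p = 0.000679) and rose by 0.52 on adding ibuprofen (SE 0.12, adjusted p = 0.019), ending 1.27-fold below the inhibitor (adjusted p = 0.0482). Sod1 was at 26.3 and 27.4 CPM, then 16.2 and 18.8, then 24.0 and 17.3, and fell by 0.58 with ligands (SE 0.17, adjusted p = 0.0243). Its ibuprofen libraries overlapped the ligand libraries, and neither comparison with ibuprofen passed (adjusted p = 0.292 and 0.19). Sod2, the mitochondrial enzyme, had means of 58.0 CPM ± 9.71, 56.1 ± 3.39 and 50.1 ± 3.43, and 21% of its 50-base windows occur in other genes. The Sod1 fall was lost without inhibitor 1, inhibitor 2 or ligand 1 (0.084, 0.123 and 0.1), and Sod1 passed against the inhibitor without ibuprofen 1 (0.0483). The Cat rise was lost without ligand 2, ibuprofen 1 or ibuprofen 2 (0.0843, 0.0825 and 0.0817), and its final deficit without inhibitor 1, ibuprofen 1 or ibuprofen 2 (0.328, 0.159 and 0.116).

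Heme oxygenase and the ferritin light chain rose with ibuprofen. Hmox1, which opens the heme ring and releases iron, was at 145 and 127 CPM with the inhibitor, 73.5 and 115 with ligands and 160 and 179 with ibuprofen. It fell by 0.55 with ligands (SE 0.17, adjusted p = 0.0314) and rose by 0.94 on adding ibuprofen (SE 0.17, adjusted p = 0.00592). Both ibuprofen libraries lay above both inhibitor libraries, by 0.40 on the log2 scale, which did not pass (adjusted p = 0.0942). Ftl1, the ferritin light chain, was at 202 and 175 CPM, then 202 and 200, then 363 and 288. It rose by 0.75 on adding ibuprofen (SE 0.13, adjusted p = 0.00418) and by 0.86 against the inhibitor (adjusted p = 0.000854).

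Fth1, the ferritin heavy chain, was among the most abundant of the 41 genes. Its level was 1923 and 1787 CPM with the inhibitor, 2518 and 2056 with ligands and 3147 and 2716 with ibuprofen. The difference passed for ibuprofen with ligands against the inhibitor (0.74, SE 0.15, adjusted p = 0.00493), and neither single step passed (0.30 and 0.43, adjusted p = 0.145 and 0.0812). The ligand fall of Hmox1 was lost without inhibitor 1, inhibitor 2 or ligand 1 (0.167, 0.0712 and 0.153). Hmox1 passed against the inhibitor without ligand 1 or ligand 2 (0.0142 and 0.015). Fth1 passed for ligands without ligand 2 (0.0353) and for the ibuprofen step without ligand 1 (0.0268). Of the 50-base windows in Ftl1 transcripts, 58.4% also occur in other genes, among them the pseudogene Ftl1-ps1, so its count is less certain.

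Glutathione S-transferases, which attach glutathione to electrophiles, split by gene. With ligands 3 of 12 tested rose (Gsta4, Gsto1, Mgst3), 5 fell (Gsta3, Gstm1, Gstm2, Gstp1, Mgst2) and 4 did not pass, where 20.3% of all genes rose and 19.8% fell. On adding ibuprofen 3 rose (Gstp1, Mgst1, Mgst3), 1 fell (Mgst2) and 8 did not pass, where 10.4% of all genes rose and 8.98% fell. Against the inhibitor, ibuprofen with ligands left 3 higher (Gsta4, Gsto1, Mgst3) and 7 lower (Gsta2, Gsta3, Gstm1, Gstm2, Gstm5, Gstp1, Mgst2). Over all genes 20.6% were higher and 19.8% lower in this comparison.

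Gsto1, an omega-class transferase with thiol transferase activity, was at 1333 and 913 CPM with the inhibitor, 3999 and 2541 with ligands and 3431 and 3114 with ibuprofen. It rose 2.90-fold with ligands (log2 fold change 1.54, SE 0.24, adjusted p = 0.00134) by 1.65 on the log2 scale against the inhibitor with ibuprofen (adjusted p = 0.000908), and gave 0.11 in the ibuprofen step (adjusted p = 0.803). Gsta4, which conjugates the lipid peroxidation product 4-hydroxynonenal, was at 758 and 696 CPM, then 1154 and 1038, then 966 and 1154. Its rise with ligands was 0.60 (SE 0.13, adjusted p = 0.00546), and 0.62 with ibuprofen and ligands (adjusted p = 0.00463). Leaving out any library kept these calls. These are the abundant transferases: the 13 summed to 2390 and 1882 CPM with the inhibitor and to 5309 and 3748 with ligands. Without Gsto1 and Gsta4 the remaining 11 summed to 299 and 273 CPM with the inhibitor, 155 and 170 with ligands and 168 and 200 with ibuprofen, so the direction of the summed level turned on these genes.

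The microsomal transferases Mgst2 and Mgst3 moved in opposite directions in both steps. Mgst3 (chr1:167371966-167393841, minus strand) was at 3.30 and 3.65 CPM with the inhibitor, 26.5 and 23.8 with ligands and 35.7 and 38.5 with ibuprofen. It rose by 2.55 with ligands (SE 0.16, adjusted p = 8.07e-06) and by 0.61 on adding ibuprofen (SE 0.16, adjusted p = 0.0266), 8.95-fold in all (adjusted p = 2.86e-06). Mgst2 (chr3:51660360-51682677, plus strand), which can make leukotriene C4 in several tissues, was at 33.9 and 26.6 CPM, then 7.60 and 11.4, then 4.05 and 2.70. It fell by 1.58 with ligands (SE 0.24, adjusted p = 0.00106) and by 1.201 with ibuprofen (SE 0.24, adjusted p = 0.00956), 6.86-fold in all (adjusted p = 4.86e-05). The ratio of Mgst3 to Mgst2 was 0.0972 and 0.137 with the inhibitor, 3.49 and 2.08 with ligands and 8.81 and 14.3 with ibuprofen. Mgst1 was at 24.6 and 24.6 CPM, then 20.9 and 18.8, then 27.0 and 29.9, and rose by 0.57 in the ibuprofen step (SE 0.13, adjusted p = 0.0205). In that step Mgst1 was lost without ligand 2, ibuprofen 1 or ibuprofen 2 (0.109, 0.0622 and 0.0969), Mgst2 without ligand 2 or ibuprofen 2 (0.0528 and 0.0513) and Mgst3 without ligand 2, ibuprofen 1 or ibuprofen 2 (0.148, 0.0949 and 0.12). The other calls of Mgst2 and Mgst3 held whichever library was left out.

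Of 3 mu-class genes, Gstm1 and Gstm2 fell with ligands. Gstm1 was at 72.1 and 59.8 CPM with the inhibitor, 8.6 and 19.0 with ligands and 10.4 and 14.99 with ibuprofen, a fall of 2.26 (SE 0.30, adjusted p = 0.000497) that was still 2.23 with ibuprofen (adjusted p = 0.000527). Gstm2 was at 12.9 and 13.99, then 5.05 and 7.996, then 4.05 and 6.74 CPM, and fell by 0.96 (SE 0.26, adjusted p = 0.0195) and, with ibuprofen, by 1.14 (adjusted p = 0.00895). Gstm5 was at 9.99 and 12.4, then 7.60 and 7.85, then 6.80 and 7.04 CPM, and passed with ibuprofen against the inhibitor (-0.55, adjusted p = 0.0472) but not with ligands (-0.47, adjusted p = 0.0789). None of the 3 passed in the ibuprofen step. The pi-class Gstp1, at 89.9 and 86.7 CPM, then 43.4 and 49.97, then 64.6 and 62.2, fell by 0.90 with ligands (SE 0.10, adjusted p = 0.00017) and rose by 0.51 on adding ibuprofen (SE 0.10, adjusted p = 0.00837). It remained below the inhibitor (-0.39, adjusted p = 0.0122). For ligands Gstm2 was lost without inhibitor 1, inhibitor 2 or ligand 1 (0.0707, 0.105 and 0.11), and against the inhibitor without inhibitor 2 or ibuprofen 1 (0.0588 and 0.0575). Gstm5 was lost in each of the 6 fits (0.0573 to 0.271). Gstp1 was lost without ibuprofen 1 in the ibuprofen step (0.0575), and against the inhibitor without inhibitor 1, inhibitor 2 or ibuprofen 2 (0.0777, 0.0605 and 0.0588).

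The low alpha-class genes gave falls or wide spread. Gsta3 was at 18.9 and 13.8, then 11.2 and 8.54, then 4.95 and 6.396 CPM, falling by 0.66 with ligands (SE 0.23, adjusted p = 0.0483) and by 1.30 with ibuprofen and ligands against the inhibitor (adjusted p = 0.00226). Gsta2 was at 19.3 and 18.1, then 13.5 and 11.6, then 5.50 and 9.84 CPM, and passed in the last comparison alone (-1.16, adjusted p = 0.00557). Gsta1 did not pass in any comparison, with group means of 13.3 CPM ± 1.17, 10.4 ± 0.424 and 13.5 ± 11.9. Its ibuprofen libraries were 5.10 and 21.98 CPM, and leaving out either turned the direction of its ibuprofen change (1.07 without ibuprofen 1, adjusted p = 0.0201, and -0.85 without ibuprofen 2, adjusted p = 0.0429), as it did against the inhibitor (0.76, adjusted p = 0.025, and -1.15, adjusted p = 0.00715). Of the 50-base windows of Gsta1, 90.5% are shared with other genes, and so are 49.8% for Gsta2, 33.7% for Gstp1 and 18.9% for Gstm1, so reads may be split between copies. The theta-class Gstt1 was not tested, with 0.15 and 0.55 CPM with the inhibitor, 0 and 0.30 with ligands and 0 in both ibuprofen libraries, where 3 reads would be 0.433 and 0.468 CPM. The ligand fall of Gsta3 was lost without inhibitor 1, inhibitor 2, ligand 2, ibuprofen 1 or ibuprofen 2 (0.281, 0.0593, 0.23, 0.0513 and 0.052). Gsta2 passed for ligands without ibuprofen 1 or ibuprofen 2 (0.0381 and 0.042) and for the ibuprofen step without ibuprofen 2 (0.0227).

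The quinone and carbonyl reductases and malic enzyme fell with ligands, and none of them passed in the ibuprofen step. Nqo1, the quinone reductase most often used as an NRF2 readout, was at 120 and 102 CPM with the inhibitor, 55.3 and 90.5 with ligands and 69.0 and 73.9 with ibuprofen. It fell by 0.63 with ligands (SE 0.18, adjusted p = 0.0241), gave 0.08 in the ibuprofen step (95% interval -0.33 to 0.50, adjusted p = 0.797) and was below the inhibitor by -0.55 with ibuprofen (adjusted p = 0.0413). Cbr3, a carbonyl reductase, was at 19.0 and 11.3, then 8.05 and 8.70, then 6.80 and 8.44 CPM, and fell by 0.74 with ligands (SE 0.24, adjusted p = 0.0403) and by 0.80 with ibuprofen and ligands against the inhibitor (adjusted p = 0.0289). Malic enzyme Me1, a source of NADPH, was at 240 and 262, then 192 and 199, then 189 and 211 CPM, and fell by 0.35 with ligands (SE 0.10, adjusted p = 0.0196), with 28.3% of its 50-base windows shared with other genes. Its difference from the inhibitor with ibuprofen did not pass (-0.25, adjusted p = 0.0706). Osgin1, an NRF2-responsive growth inhibitor, was at 20.4 and 15.04, then 12.3 and 9.14, then 6.10 and 8.14 CPM, and passed against the inhibitor alone (-1.13, SE 0.23, adjusted p = 0.00504). For ligands, Nqo1 was lost without inhibitor 1, inhibitor 2 or ligand 1 (adjusted p = 0.142, 0.0552 and 0.102), Cbr3 without inhibitor 1, ligand 1 or ligand 2 (0.293, 0.115 and 0.0963) and Me1 without inhibitor 2, ligand 1 or ligand 2 (0.158, 0.0526 and 0.0649). Against the inhibitor, Nqo1 was lost without inhibitor 1, inhibitor 2, ibuprofen 1 or ibuprofen 2 (0.201, 0.0768, 0.159 and 0.103), Cbr3 without inhibitor 1, ibuprofen 1 or ibuprofen 2 (0.22, 0.14 and 0.0536) and Osgin1 without inhibitor 1 (0.05002). Osgin1 passed for ligands without ligand 1 (0.0341).

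Both exporters fell with ligands and rose again with ibuprofen. Abcc4, a carrier of cyclic nucleotides, prostaglandins and conjugates, was at 105 and 74.9 CPM with the inhibitor, 16.1 and 15.2 with ligands and 45.1 and 37.6 with ibuprofen (chr14:118482692-118706219, minus strand). It fell 5.35-fold with ligands (log2 fold change -2.42, SE 0.17, adjusted p = 1.65e-05) and rose 2.65-fold on adding ibuprofen (1.41, SE 0.17, adjusted p = 0.000863). It ended 2.02-fold below the inhibitor (adjusted p = 0.00167). Abcc1, which exports glutathione conjugates and oxidized glutathione, was at 301 and 331, then 142 and 150, then 198 and 182 CPM. It fell by 1.10 with ligands (SE 0.09, adjusted p = 4.84e-05), rose by 0.45 on adding ibuprofen (SE 0.09, adjusted p = 0.0117) and ended 1.57-fold below the inhibitor (adjusted p = 0.000838). No groups overlapped for either gene. The rise of Abcc1 was lost without ibuprofen 1 (0.0802), and the other 5 calls of the exporters held in all 6 fits.

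**Figure D3:**
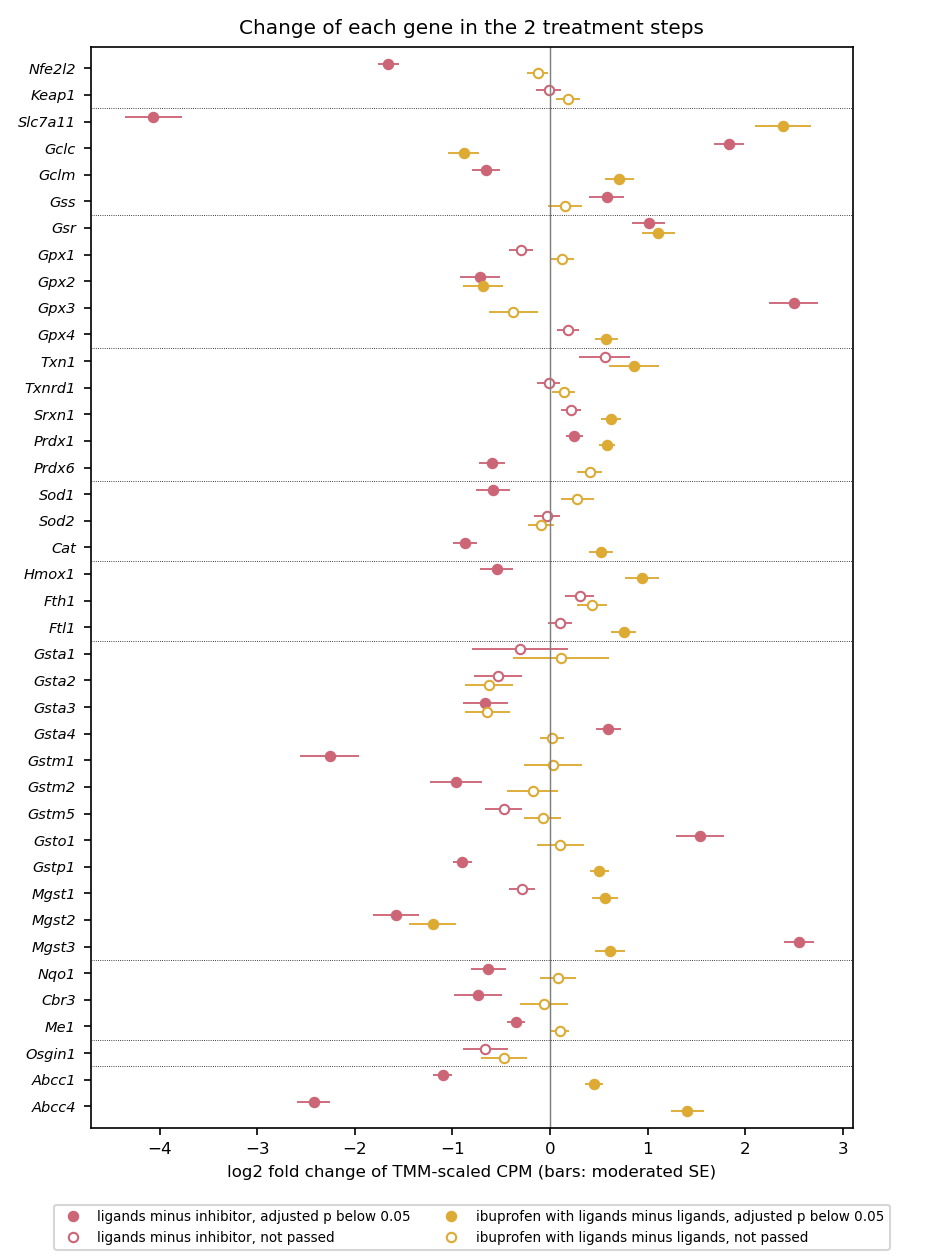
Log2 fold change of each tested gene with ligands against the inhibitor (red) and on adding ibuprofen to the ligands (yellow), with bars of 1 moderated SE; filled points passed the limma threshold of 0.05. Slc7a11 and Abcc4 lie far to the left in red and to the right in yellow, and Gclc the other way round. The ligand libraries enter both steps, which pushes errors of the same gene in opposite directions.

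Read across the comparisons, 3 genes were higher in all of them (Gsr, Mgst3, Prdx1) and 2 lower in all (Gpx2, Mgst2). Another 7 fell with ligands and rose with ibuprofen. Of these, Abcc1, Abcc4, Cat, Gstp1 and Slc7a11 stayed below the inhibitor, while Gclm and Hmox1 did not pass against it. The other falls with ligands did not pass as a rise with ibuprofen. In this class 6 genes stayed below the inhibitor (Nfe2l2, Gsta3, Gstm1, Gstm2, Nqo1, Cbr3), and 3 did not pass against it (Prdx6, Sod1, Me1), besides the 2 lower in all. Gclc alone rose with ligands and fell with ibuprofen, and Gss, Gpx3, Gsta4 and Gsto1 rose with ligands and did not pass in the ibuprofen step. A further 4 (Ftl1, Gpx4, Srxn1, Txn1) did not pass with ligands but rose with ibuprofen and against the inhibitor. These counts include the fragile calls named above, and the ligand libraries are shared by both steps. The share of all tested genes with each pattern was not counted, so the counts describe these genes alone. Calls kept in all 6 fits that each left out 1 library numbered 14 of 26 for ligands, 8 of 18 for the ibuprofen step and 21 of 29 against the inhibitor. With a single library left in a group, that library is taken to vary like those of the other groups.

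Some calls also ended under another setting. Testing every gene with no filter on low values ended the ligand calls of Gss, Gpx2, Prdx1, Sod1, Hmox1, Gsta3, Gstm2, Nqo1 and Cbr3 (adjusted p = 0.0523 to 0.0961), the ibuprofen calls of Gpx2, Txn1 and Cat (0.0583 to 0.141) and the calls of Cat, Gstm5, Nqo1 and Cbr3 against the inhibitor (0.0681 to 0.108). Fits on only the 2 groups compared ended the ligand calls of Hmox1, Gsta3 and Cbr3 (0.0513 to 0.0531), the ibuprofen calls of Gpx2 and Txn1 (0.0712 and 0.0809) and that of Gstm5 against the inhibitor (0.0567). Gsta3 with ligands, Gpx2 and Txn1 with ibuprofen, and Cat and Gstm5 against the inhibitor also missed the threshold under some other choice of pseudocount, filter or scaling (0.0502 to 0.0761). The calls of Nfe2l2, Slc7a11, Gclc, Gclm, Gsr, Gpx3, Gsta4, Gsto1, Mgst2, Mgst3, Abcc1 and Abcc4 were kept in all of these settings. Other calls were gained. Fits on only the 2 groups compared gained Hmox1 against the inhibitor (0.0136) and Gsta2 with ligands (0.0376). With no scaling factors Me1 passed against the inhibitor (0.021) and Osgin1 with ligands (0.0467). Osgin1 with ligands also passed with a filter of 5 CPM (0.0494), and Prdx6 in the ibuprofen step with other scaling factors (0.0494).

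Levels were compared between genes per kb of annotated exon. In the inhibitor group Gsta4, Gsto1 and Fth1 led, at 574 ± 34.3, 555 ± 147 and 535 ± 27.8 CPM per kb (SD, n = 2), differences smaller than the spread of Gsto1. Nfe2l2 followed at 182 ± 8.09, and Ftl1, Txn1, Slc7a11 and Gpx1 lay between 113 and 141. With ligands Gsto1 stood first at 1616 ± 510, followed by Gsta4 at 866 ± 64.8 and Fth1 at 659 ± 94.0. Slc7a11 moved from rank 7 of 41 with the inhibitor, at 131 ± 28.4 CPM per kb, to rank 28 with ligands, at 8.21 ± 4.35, and rank 17 with ibuprofen, at 38.3 ± 0.0713. Gclc went from rank 18 to 8 and then 16, and Mgst3 from 40 to 16 and then 18. Keap1 was among the lower genes in all groups, at 5.56 to 6.04 CPM per kb (ranks 37, 33 and 32).

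**Figure D4:**
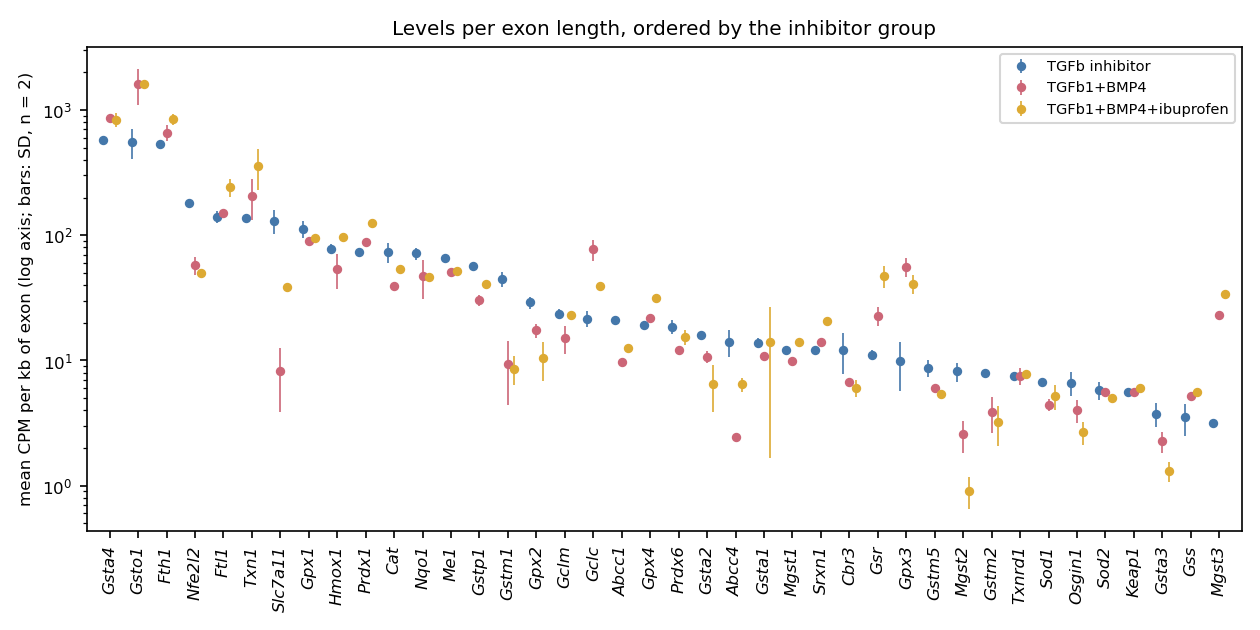
Mean CPM per kb of exon (log axis) of the 40 tested genes in the 3 groups, with SD of 2 libraries as bars, ordered by the inhibitor group. Gsta4, Gsto1 and Fth1 are highest in all groups, and the ligand points of Slc7a11 and Abcc4 lie far below the inhibitor points.

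As a share of the summed CPM of the 41 genes, which was 8700 to 11332, Slc7a11 took 16.8% and 23.5% with the inhibitor, 0.689% and 1.81% with ligands and 4.70% and 4.89% with ibuprofen. Gsto1 took 14.5% and 10.2%, then 38.5% and 29.2%, then 30.3% and 28.5%. Together Gsto1, Fth1, Slc7a11 and Gsta4 made up 60.5% to 74.6% of the sum, so the sum says little about the other 37 genes.

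Other genes of the same pathways were counted from 9 lists of 145 genes, 131 of them tested. With ligands 25 were higher and 39 lower, on adding ibuprofen 31 higher and 15 lower, and against the inhibitor 34 higher and 27 lower. The shares called were 48.9%, 35.1% and 46.6%, against 40.1%, 19.4% and 40.4% of all genes, and each list's share below is to be read against these background values. Among 12 tested partners, rivals and adaptors of NRF2, ligands gave 1 higher and 3 lower, and ibuprofen 5 higher and none lower, or 33.3% and 41.7% called (40.1% and 19.4% of all genes). The 3 that fell and rose again were Nfe2l3 (-0.97 and 1.47) and Nfe2l1 (-0.66 and 1.07), which encode relatives of NRF2, and Maff (-0.82 and 1.19), a small MAF partner. Nfe2l1 had means of 453 CPM ± 31.9, 284 ± 0.283 and 569 ± 67.8. Sqstm1, whose p62 protein can sequester KEAP1, rose by 0.71 with ibuprofen (adjusted p = 0.00562) and gave -0.06 with ligands (adjusted p = 0.726). Btrc, an adaptor for NRF2 degradation, rose by 0.50 with ligands. Against the inhibitor Bach1 (0.61), which competes for NRF2 sites, Sqstm1 (0.65), Nfe2l1 (0.40) and Nfe2l3 (0.49) were higher. Left-out libraries ended the Btrc call (without inhibitor 1, inhibitor 2, ligand 1 or ligand 2, adjusted p = 0.19, 0.0705, 0.119 and 0.0948), the Maff fall (inhibitor 2, 0.0572), and, against the inhibitor, Nfe2l1 (inhibitor 1 and ibuprofen 1, 0.149 and 0.112) and Nfe2l3 (inhibitor 1, inhibitor 2 and ibuprofen 1, 0.12, 0.0609 and 0.129).

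Of 19 tested genes that supply or consume cysteine and glutathione, 3 were higher and 6 lower with ligands, 4 higher and 2 lower with ibuprofen, and 2 higher and 7 lower against the inhibitor, or 47.4%, 31.6% and 47.4% called (40.1%, 19.4% and 40.4% of all genes). Slc3a2, the heavy chain that pairs with SLC7A11, fell by 1.96 with ligands, from 475 CPM ± 70.8 to 120 ± 9.65 (adjusted p = 1.97e-05). Cth, which makes cysteine from cystathionine, fell by 3.72 (from 79.5 CPM ± 4.98 to 5.15 ± 1.34, adjusted p = 4.33e-06) and rose by 2.05 with ibuprofen (adjusted p = 0.000339). Cdo1, which oxidizes cysteine and so removes it, did the reverse: it rose by 3.75 with ligands (from 7.60 CPM ± 0.636 to 115 ± 21.2, adjusted p = 4.01e-06) and fell by 4.49 with ibuprofen to 3.95 CPM ± 0.848 (adjusted p = 1.88e-05). Slc1a5, a glutamine carrier, fell by 2.75 and rose by 1.00, the rise being lost without ibuprofen 1 (0.0596). The aminopeptidase Lap3 fell by 1.67 with ibuprofen. Against the inhibitor Slc3a2 (-1.34), Slc1a5 (-1.75), Cth (-1.66) and the 5-oxoprolinase Oplah (-1.27) were lower. The ratio of Slc7a11 to Slc3a2 was 3.63 and 4.00 with the inhibitor, 0.632 and 1.24 with ligands and 2.68 and 3.41 with ibuprofen.

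NADPH supply genes rose with ibuprofen in 5 of 12 tested and fell in 1, after 4 higher and 4 lower with ligands. This is 50% called with ibuprofen and 66.7% with ligands (19.4% and 40.1% of all genes). Nadk, which phosphorylates NAD to NADP, fell by 0.55 and then rose by 1.15 (means 144 CPM ± 1.80, 97.3 ± 4.17 and 207 ± 27.2). Tkt, transketolase, fell by 0.48 and rose by 0.50. With ligands the folate enzyme Aldh1l1 (1.38) and the mitochondrial malic enzyme Me2 (0.80) rose. With ibuprofen Taldo1, of the pentose phosphate pathway, rose by 0.50 and the isocitrate dehydrogenase Idh1 by 0.79. Against the inhibitor 6 were higher and 1 lower, led by Taldo1 (0.90), Idh1 (1.62) and Aldh1l1 (1.36), with the folate enzyme Mthfd1 lower (-1.33). The ibuprofen rises of Tkt (without ibuprofen 1, 0.0631) and Idh1 (without ligand 2, ibuprofen 1 or ibuprofen 2, 0.0934, 0.107 and 0.0726) were lost.

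Other thioredoxin-family and repair genes gave 5 higher and 7 lower of 21 with ligands, 2 higher and 4 lower with ibuprofen, and 4 higher and 6 lower against the inhibitor, or 57.1%, 28.6% and 47.6% called (40.1%, 19.4% and 40.4% of all genes). Glrx, glutaredoxin, fell by 1.67 with ligands (from 328 CPM ± 6.21 to 102 ± 17.1), and its log2 fold change against the inhibitor with ibuprofen was -1.79. Sesn3, a sestrin (2.33 with ligands, 1.85 against the inhibitor), Msrb3, a methionine sulfoxide reductase (2.28 and 1.85), and nucleoredoxin Nxn (1.04 with ligands) rose. Txnip, which binds and inhibits thioredoxin, fell by 1.79 with ibuprofen from 283 CPM ± 59.4 to 76.1 ± 4.04 (adjusted p = 0.00101) and gave -1.83 against the inhibitor. In the ibuprofen step Txndc17 rose by 0.42, Nxn fell by 0.58 and Glrx2 by 0.63. These last calls were lost without ligand 2 for Txndc17 (0.0504), without ligand 1, ibuprofen 1 or ibuprofen 2 for Nxn (0.0876, 0.102 and 0.0533) and without ligand 1, ligand 2, ibuprofen 1 or ibuprofen 2 for Glrx2 (0.0734, 0.0649, 0.0647 and 0.0747).

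All 3 tested genes among the other peroxidases and superoxide dismutase were higher with ligands and against the inhibitor, and none passed with ibuprofen, with 40.1%, 40.4% and 19.4% of all genes called in these comparisons. Gpx8, a peroxidase of the endoplasmic reticulum, rose by 1.71 with ligands, extracellular Sod3 by 2.21 and Gpx7 by 0.87, with 1.24, 2.27 and 0.88 against the inhibitor. These, like Gpx3, rose in the libraries with the higher fibroblast marker sum, whose part was not tested. Gpx7, at 0.625 CPM ± 0.106 with the inhibitor, lost its ligand call without inhibitor 1, inhibitor 2 or ligand 1 (0.0614, 0.092 and 0.0745) and its call against the inhibitor without inhibitor 1, inhibitor 2, ibuprofen 1 or ibuprofen 2 (0.0602, 0.0885, 0.0539 and 0.0543).

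Other glutathione transferases gave no rise and 6 falls of 12 with ligands, and 5 rises and no fall with ibuprofen. Over all genes 20.3% rose and 19.8% fell with ligands, and 10.4% rose and 8.98% fell with ibuprofen. Ptges, a prostaglandin E synthase of the same superfamily as the microsomal transferases, fell by 3.30 with ligands and rose by 3.09 with ibuprofen (means 85.3 CPM ± 13.1, 7.72 ± 1.17 and 70.4 ± 15.1, adjusted p = 4.01e-06 and 2.87e-05). Gstm4 fell by 1.73 and rose by 1.63. Hpgds, a prostaglandin D synthase, rose by 1.58 with ibuprofen and Gsto2 by 1.2, while Gstcd fell by 1.13 with ligands. Gstp3 also fell with ligands, from 5.57 CPM ± 1.66 to 0.15 ± 0.212, which is under the 3-read floor, so no fold is given. Against the inhibitor Gsto2 was higher (1.43) and Gstp3 (-1.53) and Gstcd (-0.56) lower. The ibuprofen rise of Gsto2 was lost without ligand 2 or ibuprofen 1 (0.0831 and 0.0958), and the last Gstcd call without inhibitor 1 or ibuprofen 2 (0.126 and 0.0788).

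Other detoxication and export genes gave 4 higher and 8 lower of 22 with ligands, 6 higher and 2 lower with ibuprofen, and 8 higher and 4 lower against the inhibitor, or 54.5%, 36.4% and 54.5% called (40.1%, 19.4% and 40.4% of all genes). Abcc3, another conjugate exporter, fell by 2.37 with ligands, and the glucuronosyltransferases Ugt1a6a and Ugt1a7c by 1.59 and 1.76. Ugt1a6a and Ugt1a7c share exons at their locus, so their reads cannot be fully separated. Abcc5 went the other way from Abcc4, with 1.27 for ligands and -1.37 for ibuprofen. Akr1b8, an aldo-keto reductase, rose by 1.98 with ibuprofen from 39.5 CPM ± 8.66 to 150 ± 19.5 (adjusted p = 0.000208), the heme carrier Slc48a1 by 0.74 and carbonyl reductase Cbr2 by 1.08. Against the inhibitor Akr1b8 was higher (1.36), and Abcc3 (-1.66), Ugt1a6a (-1.50) and Ugt1a7c (-1.56) were lower.

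Heme, iron and ferroptosis genes gave 4 higher and 4 lower of 18 with ligands, 4 higher and 3 lower with ibuprofen, and 6 higher and 3 lower against the inhibitor, or 44.4%, 38.9% and 50% called (40.1%, 19.4% and 40.4% of all genes). With ligands the iron exporter Slc40a1 rose by 3.02, while biliverdin reductase Blvrb fell by 1.27 and the lipoxygenase Alox12b by 1.95. With ibuprofen Blvrb rose by 0.67, as did Lpcat3 by 1.17 and Acsl4 by 0.93. Lpcat3 and Acsl4 act in the path that places polyunsaturated fatty acids in membrane lipids. Alox15, a lipoxygenase, had means of 3.65 CPM ± 4.73, 154 ± 132 and 0.1 ± 0.141, and its 2 libraries per group differed widely. It passed as higher with ligands and as lower with ibuprofen. Its ibuprofen level was under the 3-read floor, and so was that of an inhibitor library, so neither size is given. The ibuprofen call of Alox15 was lost with limma voom on the estimated reads (adjusted p = 0.139). Against the inhibitor Lpcat3 (1.19) and Slc40a1 (1.97) were higher, and Alox12b (-1.94) and the transferrin receptor Tfrc (-1.02) lower.

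A list of selenoprotein synthesis factors, which serve the glutathione peroxidases and thioredoxin reductases, also holds selenoproteins themselves, such as Selenom, of the endoplasmic reticulum, and Selenop, a secreted selenium carrier. It gave 1 higher (Selenom, 0.98) and 1 lower (Eefsec, -0.86) of 12 with ligands, none higher and 3 lower with ibuprofen (Sepsecs, -0.53, Secisbp2, -0.43, and Selenop, -0.85), and none higher and 4 lower against the inhibitor (Sepsecs, -0.71, Secisbp2, -0.38, Selenop, -0.81, and Pstk, -0.33). The shares called were 16.7%, 25% and 33.3%, against 40.1%, 19.4% and 40.4% of all genes. Apart from Sepsecs against the inhibitor, each of these calls was lost when some library was left out. For ligands this held for Selenom without inhibitor 1, ligand 1 or ligand 2 (0.241, 0.0554 and 0.161) and Eefsec without inhibitor 1, inhibitor 2 or ligand 1 (0.0548, 0.107 and 0.0995). For ibuprofen it held for Sepsecs without ligand 1, ligand 2 or ibuprofen 1 (0.12, 0.0562 and 0.162), Selenop without ligand 1, ligand 2 or ibuprofen 1 (0.0523, 0.198 and 0.245) and Secisbp2 in all 6 fits (0.0506 to 0.12). Against the inhibitor it held for Selenop without inhibitor 2 or ibuprofen 1 (0.218 and 0.181), and for Secisbp2 (0.0641 to 0.164) and Pstk (0.0865 to 0.144) whenever an inhibitor or ibuprofen library was left out. With no filter on low values, calls of these lists also ended for Btrc and Selenom with ligands (0.0685 and 0.106), for Idh1, Gsto2, Secisbp2, Sepsecs and Selenop with ibuprofen (0.0508 to 0.124) and for Nfe2l3 and Selenop against the inhibitor (0.0506 and 0.0845).

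In the authors' deposited table, which gives 1 adjusted p per gene with no comparison named, 7 of the 41 genes were below 0.05, against 3495 of 52636 genes. They were Abcc1, Gpx4, Gstp1, Mgst3, Nfe2l2, Prdx1 and Srxn1. The bases of these counts are unlike, so no excess can be read from them. The expression filter used here was passed by 40 of the 41 genes, but by only 18241 of the 52636. The smallest value among the 41 in the authors' deposited table was 0.000397, for Prdx1. For Slc7a11, the authors' deposited table gives log2 fold changes of -4.07 for ligands and -1.68 for ibuprofen with ligands over the inhibitor, with an adjusted p of 0.0510.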

How the data were processed

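RNA was sequenced from 6 organoid libraries in 3 groups of 2. Per the labels, libraries were made with the Ovation Solo RNA-seq System, and the submitters' processing notes name STAR 2.5.3a, Cell Ranger 3.1.0, HTSeq, edgeR and GRCm38, with no roles. The authors deposited, per the file headers, a normalized signal per gene, CPM values, log2 fold changes and a p-value with its adjusted form. The deposited signal holds whole numbers summing to 20010331 to 20013923 in each library, and dividing it by a step per library and rounding rebuilt at least 99.88% of the deposited values. Because the signal is itself rounded, its values do not divide into whole reads within a close tolerance, so depths, read counts and floors are estimates. Whether counting used strand is not given in the sources used here.

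CPM values were scaled by TMM (trims 30% and 5%, no weights) and tested as log2(CPM + 1) with limma 3.58.1 (R 4.3.3, trend) in 1 fit of all libraries with 3 residual degrees of freedom, so fold changes understate those of low genes. Genes needed 1 CPM in 2 libraries. Adjusted p-values are Benjamini-Hochberg values over 18241 genes, with 0.05 as threshold, and the fit was tested on simulated data. Planned count tests in edgeR and DESeq2 were not run, since the values are not raw counts. Coordinates are from GENCODE vM21 (52403 of 52636 genes matched). Alternatives were other pseudocounts, filters and scaling, a replicate block, fits on only the 2 groups compared, leaving out each library and limma voom on the estimated reads. The 41 genes, the pathway lists and the tests were chosen with earlier results of these data known. All 41 are accounted for. From each pathway list up to 4 genes with the smallest adjusted p among those past the threshold are named per comparison.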

Additional observations from a re-analysis of the deposited data

How the results depend on the processing

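The log2 fold changes of single genes were followed across alternatives. In those other than leaving out a library, 1028 kept their direction and side of the threshold. A further 36 lost and 13 gained a call with their direction kept, and 3 turned direction, whatever their call. Across fits without a library the numbers were 603, 83, 14 and 20. With no filter on low values 11 of the 41 genes were lower with ligands (18 with the filter). The ibuprofen step then held 2343 genes, 1052 of them lower (3536 and 1638 with the filter). More genes then enter both the adjustment and the trend that limma fits, and the part of each was not tested. With no scaling factors the ibuprofen change of Gsta4 was -0.052 and of Gstm1 -0.037, and Gclm against the inhibitor was -0.022; this shifted the median of all genes by -0.007, -0.061 and -0.066 in the 3 comparisons.

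Without each library in turn, ligands against the inhibitor gave 4679 to 7280 genes, 2480 to 3651 higher and 2173 to 3629 lower, and 6 to 8 of the 41 genes higher and 10 to 18 lower. The ibuprofen step gave 1566 to 2853 genes, 800 to 1498 higher and 766 to 1367 lower, and 10 to 15 of the 41 higher and 1 to 3 lower. Ibuprofen against the inhibitor gave 4629 to 7504 genes, 2492 to 3825 higher and 2137 to 3679 lower, and 12 to 14 of the 41 higher and 10 to 15 lower. Log2 fold changes that turned direction ranged as follows. For ligands Keap1 ranged from -0.065 to 0.041, Txnrd1 from -0.13 to 0.10 and Sod2 from -0.21 to 0.15. For the ibuprofen step Gstm1 ranged from -0.47 to 0.52, Nqo1 from -0.23 to 0.39, Gsta4 from -0.11 to 0.15, Gstm2 from -0.49 to 0.13, Gsto1 from -0.26 to 0.47, Cbr3 from -0.20 to 0.074 and Gsta1 from -0.85 to 1.07. Against the inhibitor Gclm ranged from -0.029 to 0.14, Gpx1 from -0.34 to 0.00073, Sod2 from -0.30 to 0.057 and Gsta1 from -1.15 to 0.76. The cause of these turns was not tested.

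The labels do not say that replicate numbers pair libraries. Deviations of same-numbered libraries from their group means correlated at 0.189, 0.174 and 0.259, and with 2 numbers this does not establish pairing. With a replicate block 7960, 4302 and 7990 genes passed in the 3 comparisons, with 9 higher and 20 lower of the 41 for ligands, 17 and 3 for the ibuprofen step and 13 and 16 against the inhibitor. The block made Gpx1 (adjusted p = 0.0362), Txn1 (0.0194) and Osgin1 (0.0369) pass for ligands, and Prdx6 (0.0169) and Fth1 (0.0339) for the ibuprofen step. Limma voom on the estimated reads, chosen after seeing the data, gave 7267, 3265 and 7179 genes; Osgin1 passed for ligands (0.0405) and Fth1 for the ibuprofen step (0.0471), where Gpx2 (0.0517) and Txn1 (0.0515) did not.

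Depth limits the low genes most: Gstt1 had at most 4 estimated reads in any library, Mgst3 had 24 and 28 reads with the inhibitor, and Mgst2 had 28 and 17 with ibuprofen.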
